A study of Mus musculus with 54 samples.

Results

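Potassium channel genes were examined across 3 brain regions of 6 inbred mouse strains. The group comprised every gene whose array annotation symbol begins with Kcn followed by a lower-case letter, 84 of the 18193 genes that the platform names. Of these, 81 were protein coding, and 3 symbols stood for non-coding transcripts: Kcnq1ot1, Kcnmb4os1 and Kcnmb4os2. The genes fell into 10 Kv1 to Kv3 subunits, 9 silent Kv subunits, 7 Kv4 and KChIP genes, 3 KCNQ genes, 6 ether-a-go-go genes, 8 calcium- and sodium-activated channel genes, 15 inward rectifiers, 12 K2P (tandem-pore domain) channels and 11 other auxiliary subunits.

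Hippocampus, striatum and brainstem RNA came from male mice of the strains C57BL6/J, C57L/J, C57BLKS/J, C57BL10/J, BalbC/J and C3H HeJ, killed at postnatal day 60. In each strain, 6 of 12 mice had been through prepulse inhibition sessions at postnatal day 50 (a 120 dB startle sound preceded by a prepulse of 75 or 80 dB over a 65 dB background); the other mice were untested. Prepulse inhibition is the reduction of a startle response by a weaker preceding stimulus. Each array carried RNA pooled from 3 mice. Every strain had 1 tested and 2 untested arrays in each tissue, 18 arrays per tissue and 54 in all, and the 3 tissues of a strain came from the same mice. The 1 tested array of a strain and tissue thus held 3 of its 6 tested mice. The number of pools limits the precision of every value.

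Potassium channels let potassium ions leave the cell and thereby set the resting potential, end the action potential and tune firing rate. Voltage-gated Kv subunits open on depolarisation, inward rectifiers (Kir) hold the membrane near its resting potential, K2P domain channels carry leak current, and calcium- or sodium-activated channels shape the after-potential. Silent Kv subunits form no channel alone and modify other Kv channels, while auxiliary subunits change gating or surface delivery. In brain, Kir4.1 (Kcnj10) is the main potassium channel of astrocytes and takes up potassium released by firing neurons, and G protein-gated Kir3 channels (Kcnj3, Kcnj6 and Kcnj9) slow neurons in response to inhibitory transmitters.

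The 250 bases before the annotated start of 3 genes are given because the strain and choroid plexus results below turn on them: Kcnj10 differed between strains in the same direction in 3 tissues, and Kcnj13 and Kcne2 rose and fell together across arrays. Letters are those of the coding strand, read in the direction of transcription, from RefSeq promoter records of mouse build GRCm38.p6, at chr1:172340960-172341209 (plus strand) for Kcnj10, chr1:87394730-87394979 (minus) for Kcnj13 and chr16:92292139-92292388 (plus, the first of 2 listed starts) for Kcne2. Capitals mark matches on either strand to any of these motifs: TATAAA for the TATA box, GGGCGG for Sp factors, CCAAT for the CAAT box, and TAATCC for the choroid plexus factor Otx2.
Kcnj10: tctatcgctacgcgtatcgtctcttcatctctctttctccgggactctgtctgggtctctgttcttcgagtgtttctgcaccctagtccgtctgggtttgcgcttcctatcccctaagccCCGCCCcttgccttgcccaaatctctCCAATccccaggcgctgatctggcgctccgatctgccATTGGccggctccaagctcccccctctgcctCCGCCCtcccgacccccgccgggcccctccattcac
Kcnj13: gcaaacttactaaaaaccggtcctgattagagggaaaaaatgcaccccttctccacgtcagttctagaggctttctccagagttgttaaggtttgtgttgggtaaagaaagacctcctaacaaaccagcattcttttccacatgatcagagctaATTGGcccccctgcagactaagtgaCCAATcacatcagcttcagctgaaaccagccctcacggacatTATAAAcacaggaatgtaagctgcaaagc
Kcne2: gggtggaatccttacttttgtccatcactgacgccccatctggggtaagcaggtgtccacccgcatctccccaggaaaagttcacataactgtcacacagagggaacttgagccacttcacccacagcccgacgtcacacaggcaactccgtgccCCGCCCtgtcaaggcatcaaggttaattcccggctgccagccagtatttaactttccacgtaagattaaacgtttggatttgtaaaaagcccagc
The Kcnj10 stretch held 17 CpG pairs at 62.0% G and C, with 2 matches to GGGCGG and 2 to CCAAT. In the Kcnj13 stretch there were 3 CpG pairs, 1 TATAAA and 2 CCAAT matches, and in that of Kcne2 9 CpG pairs and 1 GGGCGG match; neither held TAATCC. Among 32851 such records, 12.4% held TATAAA, 32.7% GGGCGG, 33.8% CCAAT and 6.3% TAATCC, and the median record had 6 CpG pairs and 52.4% G and C. A record was present for 64 of the 84 genes. The matches describe letters only and were not tied to the expression values.

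Genes entered the test of a tissue where their brightest probe set lay above the 40th percentile of the array on at least 3 arrays, which 59 of the 84 genes did in hippocampus, 56 in striatum and 60 in brainstem. In all, 66 passed in at least 1 tissue, 49 in all 3, and 18 in none: Kcne1, Kcng2, Kcnh7, Kcnj1, Kcnj5, Kcnj15, Kcnk4, Kcnk5, Kcnk7, Kcnk12, Kcnk15, Kcnk16, Kcnmb1, Kcnmb4os1, Kcnn3, Kcnn4, Kcnu1 and Kcnv2. For these 18 no difference could be judged. Kcnn3, which encodes a small-conductance calcium-activated channel of midbrain and other neurons, had a mean of 2.40 in striatum, 1.78 in hippocampus and 1.73 in brainstem on the log2 scale. All levels below are log2 values as deposited, and differences are on that scale, so that 1 is a doubling.

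The tissue labels matched their marker genes. A list of hippocampal markers averaged 10.94 in hippocampus against 6.12 in striatum and 6.85 in brainstem, a striatal list 13.59 in striatum against 6.86 and 7.78, and a brainstem list 9.06 in brainstem against 3.90 and 3.67, although Chat did not pass the filter in brainstem. For 53 of 54 arrays the best correlated array was of the same strain and tissue. Some arrays stood apart by their other markers. The second untested C3H HeJ brainstem array lay 4.07 above the brainstem median on a cerebellar list (Pcp2 at 14.64 against 6.87 to 11.07 on the other 17 arrays) and had the lowest value on the brainstem list, 7.96. The second untested C57L/J striatum array lay 1.62 above the striatal median on a cortical list and 0.98 below it on the striatal list, and the tested BalbC/J striatum array 1.03 above on the cortical list. Markers of the choroid plexus, the secretory tissue of the ventricles, were over 1 above the tissue median on 7 hippocampus, 7 striatum and 1 brainstem arrays. Some results are given with and without single arrays of this kind or beside their marker values. Leaving out the second untested C57L/J striatum array was covered only by the results over all arrays left out in turn.

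The first comparison asked how potassium channel genes differ between the 3 regions. Brainstem stood apart most: the silent subunit Kcng4 and the Kv11.1 gene Kcnh2 were higher there than in either forebrain region, while Kcnv1, Kcnip2, Kcnj4 and Kcnf1 were lower. Striatum had high Kcna5, and hippocampus had high Kcnj6. Over all strains, 59 of 66 genes differed between hippocampus and striatum in limma's test (Benjamini-Hochberg adjusted p under 0.05; 36 higher and 23 lower in hippocampus), 57 between hippocampus and brainstem (30 and 27), and 61 between striatum and brainstem (26 higher and 35 lower in striatum). Such calls were the rule on these arrays, at 87.1%, 85.5% and 89.2% of all genes tested, so the counts say little of potassium channels. The sizes were larger: the median absolute difference was 1.02, 1.55 and 2.01 for the channel genes and 0.43, 0.46 and 0.64 for all 13199 genes, and 35, 43 and 46 of the 66 differed by over 2-fold against 21.1%, 25.2% and 33.3% of all genes. A gene entered these sizes by passing the filter in any 1 tissue. Only 49 of the 66 channel genes passed in all 3, a smaller share than the 11606 of 13199 among all genes. The part of genes under the filter in some tissue in these sizes was not tested.

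Array medians of the deposited values lay between 4.17 and 4.31 in striatum, 4.43 and 4.57 in brainstem, and 4.53 and 4.72 in hippocampus. The median of all genes lay 0.24 higher in hippocampus than in striatum and 0.31 lower in striatum than in brainstem. After quantile normalization of the 54 arrays together the split of the channel genes between hippocampus and striatum was 32 higher and 29 lower, and after centring each array on its median it was 29 and 31; the called differences that changed sign under either scaling were those of Kcne3, Kcnh8, Kcnj11, Kcnma1 and Kcnq3 in this pair, at most 0.29 in size, and that of Kcnj6 between striatum and brainstem (0.09).

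**Figure D1:**
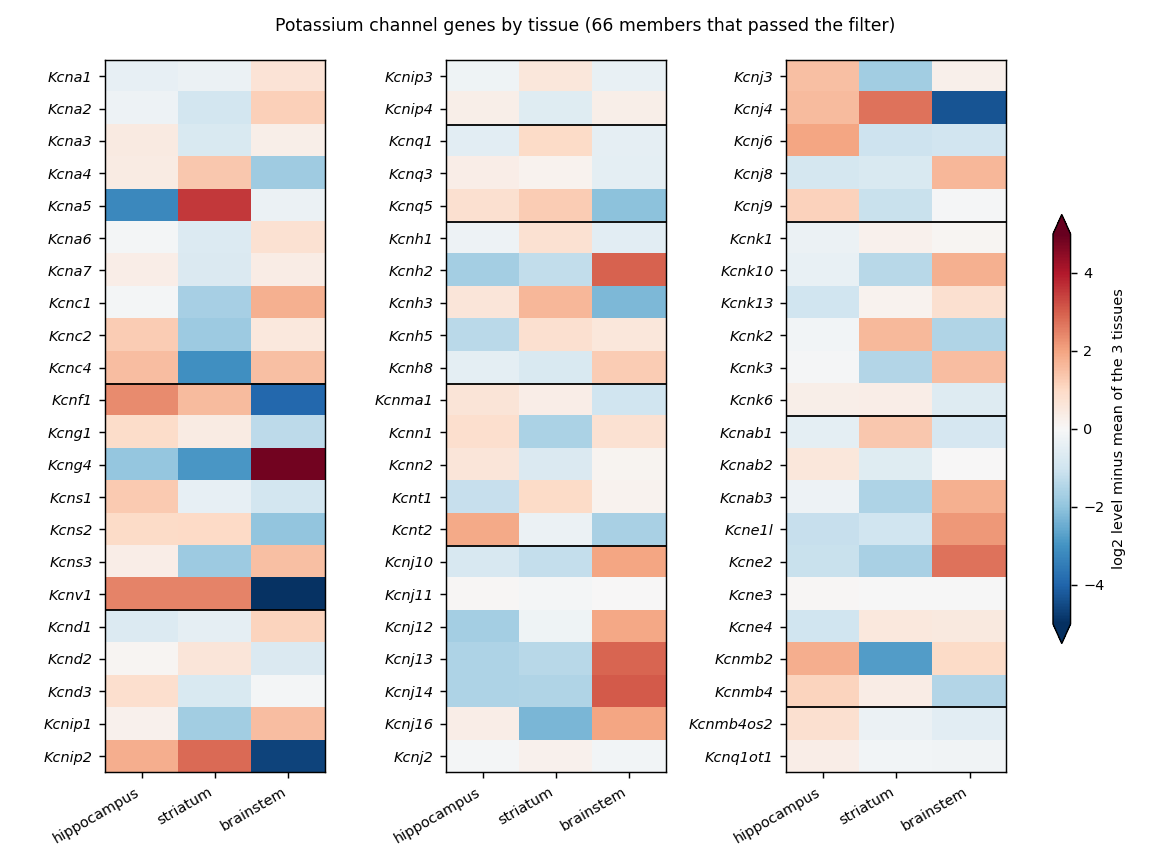
Tissue means of the 66 potassium channel genes that passed the filter in at least 1 tissue, drawn as the log2 mean over 18 arrays minus the mean of the 3 tissue means (colour, from -5 to 5; 1 row per gene). Horizontal lines separate the gene families; Kcng4 is high and Kcnv1, Kcnip2, Kcnj4 and Kcnf1 are low in the brainstem column.

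Among Kv1 to Kv3 subunits, 7 of 10 were lowest in striatum (called lower there than in both other tissues), beside 46.1% of all genes, and 4 were highest in brainstem beside 39.9%. Kcna1 and Kcna2, which form axonal Kv1 channels, had means of 13.80 ± 0.07 and 13.41 ± 0.11 in brainstem (SD, n = 18), 12.68 ± 0.14 and 11.97 ± 0.17 in hippocampus, and 12.82 ± 0.10 and 11.33 ± 0.24 in striatum. Brainstem arrays of Kcna1 ran from 13.64 to 13.90, those of hippocampus from 12.45 to 13.02 and those of striatum from 12.64 to 13.01, so brainstem stood clear of both. Kcnc1 encodes Kv3.1, a channel of fast-spiking neurons. It averaged 12.42 ± 0.14 in brainstem, 10.55 ± 0.13 in hippocampus and 8.98 ± 0.44 in striatum (SD, n = 18). Its relatives Kcnc2 (Kv3.2) and Kcnc4 (Kv3.4) were also low in striatum, Kcnc2 at 8.69 ± 1.19 there against 11.78 ± 0.07 in hippocampus and 11.01 ± 0.28 in brainstem, and Kcnc4 at 5.78 ± 0.90 against 10.39 ± 0.16 and 10.35 ± 0.22. The striatal Kcnc4 arrays ran from 5.00 to 7.84 and did not overlap those of hippocampus (10.10 to 10.65) or brainstem (9.65 to 10.64). Striatal Kcnc2 arrays ran from 7.46 to 11.55 and overlapped those of brainstem (9.96 to 11.23). The highest striatal Kcnc1 array, 10.46, lay within the hippocampal range (10.33 to 10.82).

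Kcna5, which encodes Kv1.5, showed the opposite order. Its lowest, median and highest arrays were 7.87, 10.11 and 10.53 in striatum, 2.90, 3.07 and 4.44 in hippocampus, and 4.98, 6.13 and 6.59 in brainstem. Every striatal array thus exceeded every array of the other tissues, and the hippocampal level did not pass the filter. The mean was 6.73 ± 0.14 higher than in hippocampus (SE; limma adjusted p = 7.21e-33) and 3.83 ± 0.14 higher than in brainstem (limma adjusted p = 5.03e-25). The lowest striatal value, 7.87, belonged to the second untested C57L/J array with raised cortical markers. Kcna4, an A-type Kv1 subunit, was likewise highest in striatum at 10.93 ± 0.37 (SD, n = 18) and lowest in brainstem at 7.81 ± 0.23, with hippocampus at 9.99 ± 0.19.

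Of the 7 silent Kv subunits tested, 5 were lowest in brainstem (Kcnf1, Kcng1, Kcns1, Kcns2 and Kcnv1) beside 22.5% of all genes, and 2, Kcng4 and Kcns3, were highest there. Kcng4 had lowest, median and highest values of 9.78, 10.16 and 10.34 in brainstem, 3.20, 3.27 and 3.83 in hippocampus and 2.21, 2.26 and 4.04 in striatum. The groups did not overlap between brainstem and forebrain, and the striatal level was under the filter. Brainstem was 6.76 ± 0.09 above hippocampus and 7.76 ± 0.09 above striatum (SE; limma adjusted p = 4.43e-40 and 3.32e-42). Kcnv1 ran the other way, with hippocampal arrays from 9.49 to 10.15, striatal ones from 9.38 to 10.38 and brainstem ones from 2.41 to 2.61, where it did not pass the filter. The difference between its hippocampal and striatal means was -0.01 ± 0.05 (SE; adjusted p = 0.914, limma). Kcnf1 averaged 9.96 ± 0.29 in hippocampus, 9.17 ± 0.45 in striatum and 3.69 ± 0.16 in brainstem (SD, n = 18), and Kcns2 9.91 ± 0.15, 9.97 ± 0.22 and 7.00 ± 0.19. Kcns1 was highest in hippocampus at 4.54 ± 0.24 against 2.81 ± 0.23 in striatum and 2.30 ± 0.07 in brainstem, the last pair under the filter, so that it was tested only through hippocampus.

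The A-type channel complex of Kv4 pores and KChIP calcium sensors was split between regions. Kcnip2 (KChIP2) had lowest, median and highest values of 12.58, 13.23 and 13.44 in striatum, 11.92, 12.22 and 12.38 in hippocampus, and 5.37, 5.65 and 6.22 in brainstem. Brainstem was lower by 7.46 ± 0.05 than striatum (SE; limma adjusted p = 8.37e-51), with no overlap of arrays. Kcnd2, the Kv4.2 pore of dendritic A-type current, averaged 12.80 ± 0.21 in striatum, 12.30 ± 0.08 in hippocampus and 11.48 ± 0.37 in brainstem (SD, n = 18). Of the 7 genes, 3 were highest in striatum (Kcnd2, Kcnip2 and Kcnip3; beside 15% of all genes), and the same 3 were lowest in brainstem (beside 22.5%), Kcnip3 not after median centring. Kcnd1 and Kcnip1 were highest in brainstem.

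In the ether-a-go-go family, Kcnh2 encodes the Kv11.1 channel and averaged 10.43 ± 0.31 in brainstem, 5.80 ± 0.11 in hippocampus and 6.26 ± 0.20 in striatum (SD, n = 18). Kcnh1 and Kcnh3 were highest in striatum and lowest in brainstem, Kcnh1 in brainstem only under the deposited scaling. Kcnh5 was lowest in hippocampus, at 4.64 ± 0.31 against 6.76 ± 0.80 in striatum and 6.54 ± 0.59 in brainstem. The KCNQ genes carry the M-current, a slow brake on repetitive firing. Kcnq3 averaged 12.19 ± 0.12 in hippocampus, 12.07 ± 0.13 in striatum and 11.37 ± 0.15 in brainstem; striatum and not hippocampus was its highest tissue after quantile normalization and after median centring. Kcnq1, better known from heart and epithelia, was highest in striatum at a low level of 4.39 ± 0.07 against 2.92 ± 0.06 in hippocampus and 2.97 ± 0.14 in brainstem; it passed the filter in striatum alone.

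Among calcium- and sodium-activated channels, Kcnma1, the pore of the large-conductance BK channel, averaged 10.93 ± 0.20 in hippocampus, 10.64 ± 0.36 in striatum and 9.30 ± 0.20 in brainstem (SD, n = 18); its excess in hippocampus over striatum, 0.29, changed sign after median centring. Its neuronal beta subunit Kcnmb4 ran in the same order, at 11.48 ± 0.11, 10.74 ± 0.34 and 8.92 ± 0.63. Kcnmb2, another BK beta subunit, was low and under the filter in striatum, at 2.50 ± 0.20 against 7.08 ± 0.19 in hippocampus and 6.25 ± 0.23 in brainstem. The small-conductance channel genes Kcnn1 and Kcnn2 were lowest in striatum too. Kcnn1 averaged 2.77 ± 0.15 there, under the filter, against 5.18 ± 0.31 in hippocampus and 5.11 ± 0.51 in brainstem, and Kcnn2 9.17 ± 0.25 against 10.49 ± 0.21 and 10.05 ± 0.15. The sodium-activated channels were unlike each other: Kcnt1 was highest in striatum (10.22 ± 0.14) and lowest in hippocampus (8.13 ± 0.18), and Kcnt2 highest in hippocampus (10.40 ± 0.25) and lowest in brainstem (6.88 ± 0.29).

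Among inward rectifiers, 6 of 12 were highest in brainstem (Kcnj8, Kcnj10, Kcnj12, Kcnj13, Kcnj14 and Kcnj16), beside 39.9% of all genes. Kcnj10 averaged 13.00 ± 0.40 in brainstem, 10.23 ± 0.53 in hippocampus and 9.85 ± 0.54 in striatum (SD, n = 18), and its glial partner Kcnj16 (Kir5.1) 9.10 ± 0.45, 7.49 ± 0.58 and 4.85 ± 0.54. A list of 10 astrocyte markers averaged 12.99 in brainstem, 12.54 in hippocampus and 11.90 in striatum; in tissue samples a different number of cells of a type and a different amount of RNA per cell cannot be told apart. Kcnj14 (Kir2.4) ran from 5.39 to 7.54 in brainstem, 2.18 to 2.37 in hippocampus and 2.19 to 2.34 in striatum, and did not pass the filter in the last pair. Kcnj12 (Kir2.2) averaged 6.25 ± 0.73 in brainstem against 2.62 ± 0.20 in hippocampus (under the filter) and 4.12 ± 0.15 in striatum, with 1 brainstem array at 9.06, the C3H HeJ array with cerebellar markers. Kcnj8, the Kir6.1 pore of vascular KATP channels, averaged 5.88 ± 0.25 in brainstem, 3.37 ± 0.06 in hippocampus and 3.46 ± 0.28 in striatum.

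Kcnj4 (Kir2.3), an inward rectifier of forebrain neurons, had lowest, median and highest arrays of 7.99, 9.32 and 9.87 in striatum, 7.48, 8.10 and 8.51 in hippocampus and 2.16, 2.21 and 2.28 in brainstem. It was 7.03 ± 0.10 lower in brainstem than in striatum (SE; limma adjusted p = 5.47e-39), at a brainstem level under the filter. The 3 neuronal Kir3 genes tested were all highest in hippocampus and lowest in striatum under the deposited scaling. Kcnj6 averaged 6.52 ± 0.47 in hippocampus, 3.61 ± 0.10 in brainstem and 3.52 ± 0.04 in striatum, and the last pair changed order under both other scalings. Kcnj3 averaged 11.55 ± 0.09, 8.34 ± 1.03 and 10.30 ± 0.17, and Kcnj9 9.58 ± 0.22, 7.30 ± 0.95 and 8.37 ± 0.38, in that order of tissues. Their striatal arrays varied widely, and the highest of both genes (10.77 and 9.74) was the C57L/J array with the most raised cortical markers.

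Of 6 K2P channels tested, Kcnk3 (TASK-1) was highest in brainstem and lowest in striatum (8.74 ± 0.44 against 5.74 ± 0.26), with hippocampus at 7.14 ± 0.11 (SD, n = 18). Kcnk2 (TREK-1), a channel gated by stretch, lipids and heat, was highest in striatum at 12.34 ± 0.30 against 10.58 ± 0.14 in hippocampus and 9.20 ± 0.18 in brainstem. The auxiliary Kvβ1 subunit Kcnab1, which speeds inactivation of Kv1 channels, was also highest in striatum, at 13.62 ± 0.20 against 11.77 ± 0.08 and 11.43 ± 0.13. Kcne4 was lowest in hippocampus at 2.83 ± 0.16, under the filter, against 4.35 ± 0.13 in striatum and 4.33 ± 0.18 in brainstem. Leaving out any 1 of the 54 arrays changed the counts of called genes to 57 to 59, 57 to 58 and 60 to 62 for the 3 tissue pairs.

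The second comparison asked which channel genes differ between strains. Kcnj10 was about 1 log2 unit higher in C3H HeJ and BalbC/J than in the 4 C57 strains in hippocampus and striatum and 0.72 higher in brainstem, while Kcnj11, the Kir6.2 pore of neuronal KATP channels, and Kcnk1 (TWIK-1, a K2P channel of neurons and astrocytes) were lower in both strains in all tissues. In limma's test over the 6 strains, hippocampus had 22 called genes of 59 (beside 31.2% of all genes tested), striatum 11 of 56 (26.2%) and brainstem 10 of 60 (23%). The median range of strain means was 0.31, 0.50 and 0.40 for the channel genes and 0.27, 0.36 and 0.30 for all genes. Of 49 genes tested in every tissue, 26 were called in at least 1 (background 50.6%) and 5 in all 3 (Kcnj10, Kcnj11, Kcnk1, Kcnk2 and Kcnip4; background 9.26%). The shares lay near those of all genes, so strain calls were not more frequent among potassium channels by this count.

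**Figure D2:**
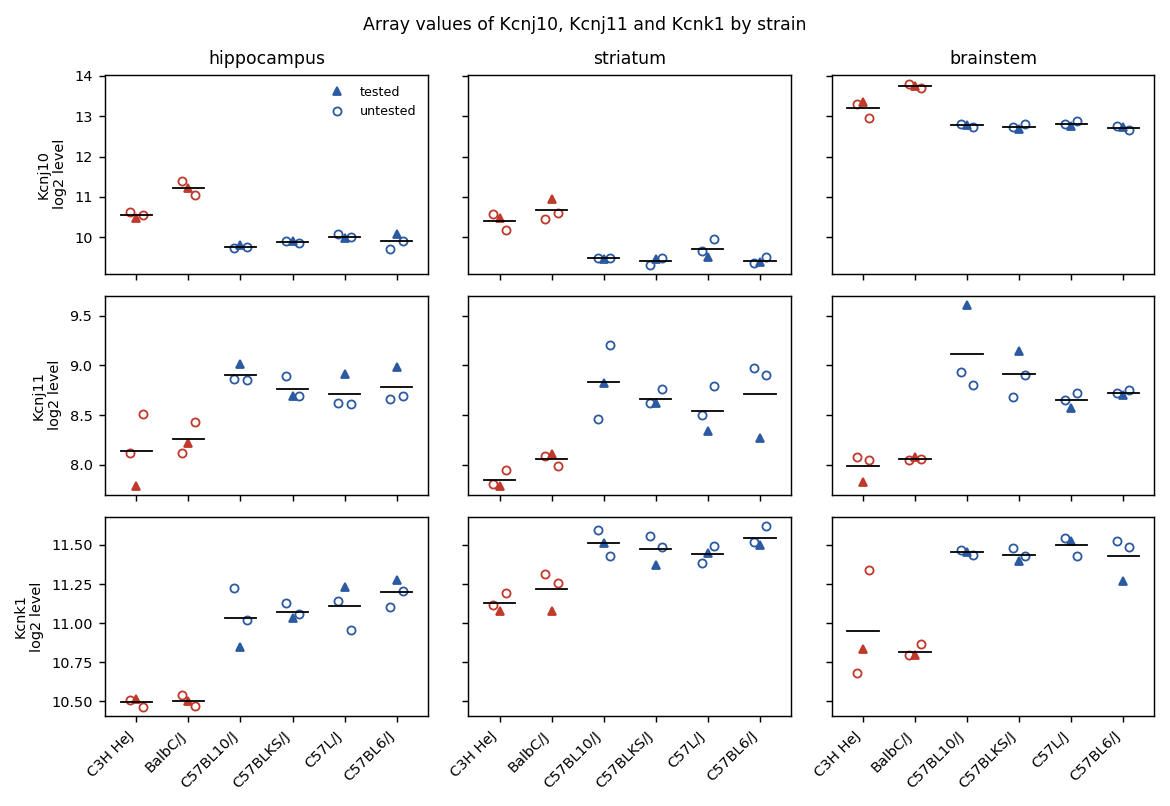
Log2 values of Kcnj10, Kcnj11 and Kcnk1 on every array, by tissue and strain (red, C3H HeJ and BalbC/J; blue, the 4 C57 strains; triangles, tested; open circles, untested; black bars, strain means over 3 arrays). The red points of Kcnj10 lie above and those of Kcnj11 below all blue points in each tissue, and 1 brainstem C3H HeJ array of Kcnk1 at 11.34 lies among the blue points.

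Kcnj10 gave 10.47, 10.63 and 10.56 in C3H HeJ hippocampus (tested, then the untested pair) and 11.21, 11.38 and 11.06 in BalbC/J hippocampus, whereas the 12 arrays of C57 strains had lowest, median and highest values of 9.70, 9.91 and 10.09. In striatum it gave 10.48, 10.57 and 10.19 in C3H HeJ and 10.96, 10.45 and 10.59 in BalbC/J against 9.32, 9.49 and 9.96 in C57 strains. In brainstem the values were 13.35, 13.30 and 12.95 in C3H HeJ and 13.76, 13.81 and 13.69 in BalbC/J against 12.65, 12.75 and 12.88. The groups did not overlap in any tissue. The differences between the mean of C3H HeJ and BalbC/J and that of the C57 strains were 0.99 ± 0.05, 1.03 ± 0.08 and 0.72 ± 0.05 (SE; limma adjusted p = 3.61e-09, 9.19e-07 and 2e-07). The astrocyte list ran from 12.52 to 12.71 in these strains against 12.39 to 12.68 in C57 strains in hippocampus, from 11.86 to 12.16 against 11.76 to 12.00 in striatum, and from 12.96 to 13.14 against 12.89 to 13.00 in brainstem. Of its 10 markers, 4, 3 and 3 were called higher and 2 lower in each tissue, and their part in the Kcnj10 difference was not tested. A list of 10 oligodendrocyte markers moved with the same contrast: 7, 6 and 4 were called lower and 1, 0 and 1 higher in hippocampus, striatum and brainstem, with median differences of -0.39, -0.35 and -0.23. Its mean level ran from 11.63 to 12.13 in C3H HeJ and BalbC/J against 11.74 to 12.47 in C57 strains in hippocampus, from 12.32 to 12.68 against 12.53 to 13.01 in striatum, and from 12.99 to 13.71 against 13.58 to 13.81 in brainstem. Its part in the strain differences of channel genes was not tested.

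Kcnj11 gave 7.79, 8.12 and 8.51 in C3H HeJ hippocampus and 8.22, 8.12 and 8.43 in BalbC/J hippocampus, against 8.61, 8.77 and 9.01 (lowest, median and highest) in C57 strains. The 6 arrays of C3H HeJ and BalbC/J covered 7.79 to 8.11 in striatum and 7.83 to 8.08 in brainstem, and the 12 C57 arrays from 8.27 to 9.20 and from 8.57 to 9.61. No C57 array fell among those of the other strains. In the same order of tissues Kcnj11 fell by 0.59 ± 0.09, 0.73 ± 0.11 and 0.83 ± 0.10 (SE; limma adjusted p = 0.00026, 0.000254 and 3.48e-05). Abcc8 (SUR1), the regulatory subunit that assembles with Kir6.2, differed by -0.05 and -0.09 in hippocampus and striatum, with adjusted p = 0.55 and 0.511 in limma, and rose by 0.37 ± 0.10 in brainstem (adjusted p = 0.0158, limma).

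Kcnk1 ran from 10.46 to 10.54 on the 6 hippocampus arrays of C3H HeJ and BalbC/J and from 10.85 to 11.28 on the 12 of C57 strains. In striatum the ranges were 11.08 to 11.32 and 11.37 to 11.62. In brainstem they were 10.68 to 11.34 and 11.27 to 11.54, and they overlapped through the C3H HeJ array with cerebellar markers; without it the difference between the groups was -0.66 ± 0.04 (SE). With all arrays Kcnk1 fell by 0.60 ± 0.05, 0.32 ± 0.04 and 0.57 ± 0.07 in the 3 tissues (SE; limma adjusted p = 5.21e-07, 5.39e-05 and 6.88e-05). Its second probe set gave the same direction, with hippocampal strain means of 9.96 and 10.08 against 10.59 to 10.85. For Kcnj10 a single probe set was present, and the second of Kcnj11 gave hippocampal strain means of 3.36 to 3.91, little above the filter. These 3 genes were called in every tissue on leaving out any single array, in both the 6-strain test and the contrast with C57 strains.

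In that contrast of C3H HeJ and BalbC/J with C57 strains, 14 of 59 genes were called in hippocampus (7 higher and 7 lower; background 25.4%), 14 of 56 in striatum (7 and 7; background 24%) and 9 of 60 in brainstem (4 and 5; background 20.7%). Arrays of the groups did not overlap for 6 genes in hippocampus (background 3.09%), namely Kcnc4, Kcnip3, Kcnj9, Kcnj10, Kcnj11 and Kcnk1, for 3 in striatum (2.74%), namely Kcnj10, Kcnj11 and Kcnk1, and for 3 in brainstem (3.02%), namely Kcnj10, Kcnj11 and Kcnn2. The median difference was -0.02, -0.06 and -0.04 for channel genes and 0.02, 0.02 and 0.01 for all genes.

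Against C57BL6/J alone, whose arrays all 5 contrasts share, Kcnj10, Kcnj11 and Kcnk1 were the 3 genes called the same way in every tissue both in C3H HeJ (background 4.45%) and in BalbC/J (background 3.15%). Called in single tissues (hippocampus, striatum, brainstem) were 16, 9 and 8 genes in C3H HeJ (background 18%, 17.6% and 19.3%), 13, 3 and 7 in BalbC/J (15.1%, 7.68% and 12.3%), 0, 0 and 1 in C57BL10/J (2.25%, 0.536% and 2.75%), 5, 0 and 1 in C57BLKS/J (5.57%, 2.18% and 2.74%), and 2, 0 and 0 in C57L/J (4.39%, 4.3% and 3.28%). No gene was called the same way in every tissue in C57BL10/J, C57BLKS/J or C57L/J (background 0.258%, 0.982% and 1.17%). Kcnj10 differed by 0.65, 0.99 and 0.49 in C3H HeJ and by 1.32, 1.24 and 1.04 in BalbC/J in hippocampus, striatum and brainstem. For Kcnj11 the values were -0.64, -0.87 and -0.74 in C3H HeJ and -0.52, -0.66 and -0.66 in BalbC/J. For Kcnk1 they were -0.70, -0.42 and -0.48, and -0.69, -0.33 and -0.61. The Kcnj11 call in BalbC/J was lost in hippocampus on leaving out any of 4 arrays (adjusted p up to 0.139, limma), in striatum without any of 8 (up to 0.165) and in brainstem without any of 3 (up to 0.0618). In C3H HeJ it was lost in hippocampus without any of 2 arrays, and that of Kcnk1 in brainstem without 1, the first untested C57BL6/J array.

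**Figure D3:**
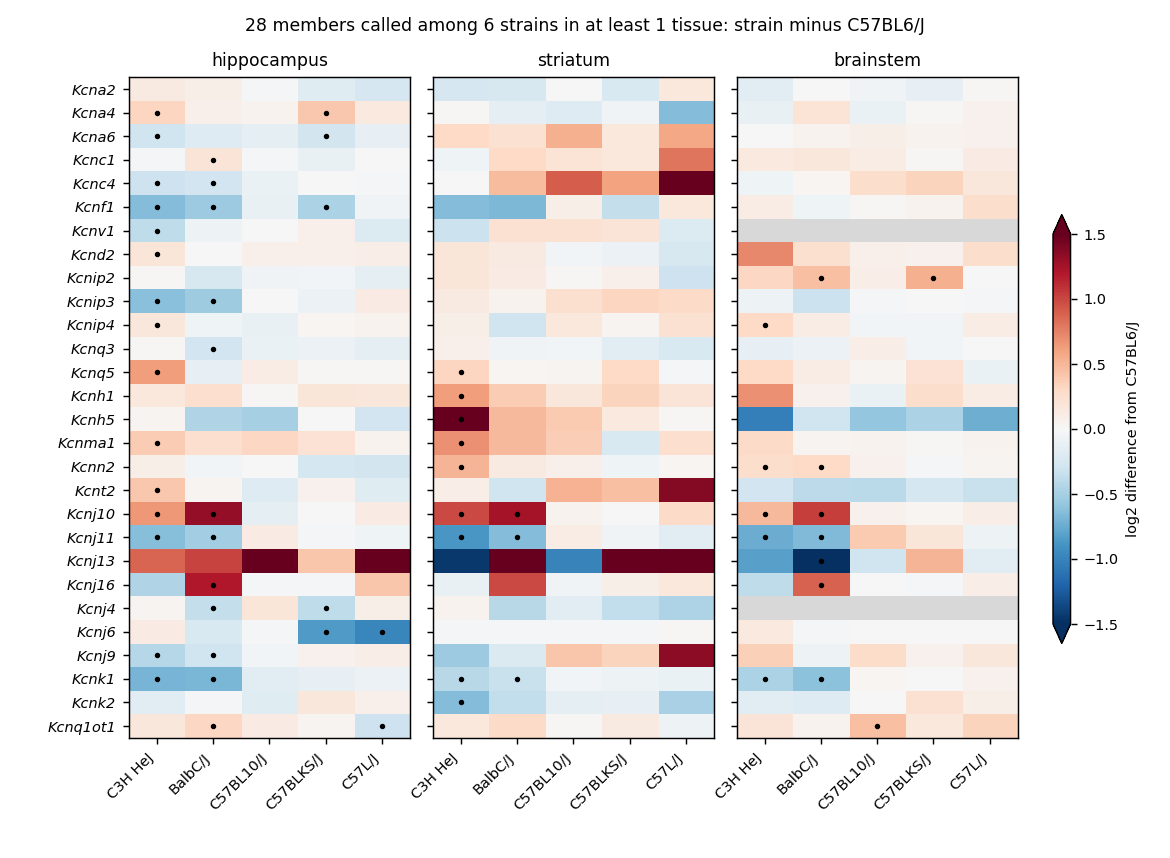
Difference of each strain from C57BL6/J (colour, log2, from -1.5 to 1.5) for the 28 genes called among the 6 strains in at least 1 tissue; black dots mark limma adjusted p under 0.05 and grey marks genes not tested in that tissue. Of 60 marked cells, 29 lie in C3H HeJ and 22 in BalbC/J, and the others in C57BL10/J (1), C57BLKS/J (6) and C57L/J (2).

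Other inward rectifiers differed in single strains. Kcnj16, which forms mixed channels with Kcnj10, gave 8.47, 8.36 and 8.67 in BalbC/J hippocampus, where the other strains ran from 6.48 to 7.94, and 10.02, 9.85 and 9.80 in BalbC/J brainstem against 7.93 to 9.13. BalbC/J exceeded C57BL6/J by 1.20 ± 0.20 and 0.88 ± 0.19 (SE; limma adjusted p = 0.000665 and 0.00869). The C3H HeJ arrays were not high, at 6.83, 6.48 and 7.24 in hippocampus. In striatum BalbC/J gave 6.51, 5.70 and 4.76 against 4.39 to 5.54, with overlap, and the 6-strain adjusted p was 0.133 in limma. The second Kcnj16 probe set had its highest strain mean in BalbC/J in all 3 tissues.

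Kcnj6, the Kir3.2 subunit of G protein-gated channels, was low in hippocampus of C57BLKS/J (6.11, 5.81 and 6.08) and C57L/J (5.79, 6.02 and 5.79). The other strains ran from 6.42 to 7.35 there, without overlap. C57BLKS/J and C57L/J lay 0.85 ± 0.14 and 0.98 ± 0.14 below C57BL6/J (SE; limma adjusted p = 0.00161 and 0.000382). Striatal Kcnj6 arrays covered 3.43 to 3.58 and brainstem ones 3.55 to 3.99, near the filter. The next probe sets of Kcnj6 did not show the pattern: the second had strain means of 3.91 to 4.23 in hippocampus, and the third was highest in C57BL6/J at 5.64 against 4.71 to 5.12.

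Kcnip3 (KChIP3, also known as the transcriptional repressor DREAM) was low in hippocampus of C3H HeJ (8.79, 9.03 and 9.16) and BalbC/J (9.06, 9.10 and 9.11), against 9.46, 9.60 and 9.98 (lowest, median and highest) in C57 strains. Kcnip3 fell by 0.59 ± 0.05 there (SE; limma adjusted p = 7.81e-07). In striatum and brainstem the groups overlapped and the differences were -0.12 and -0.19, with adjusted p = 0.169 and 0.059 in limma. Kcnf1, a silent subunit, fell by 0.44 ± 0.06 in hippocampus and 0.63 ± 0.16 in striatum (adjusted p = 8.03e-05 and 0.0111, limma). The contrast was also called in hippocampus for Kcna2 (0.22), Kcnc1 (0.12), Kcnq5 (0.21, reversed with the mean of its probe sets), Kcnv1 (-0.20), Kcnc4 (-0.27), Kcnt2 (0.30), Kcnq1ot1 (0.28), Kcnj6 (0.41) and Kcnj9 (-0.39, reversed on other probe sets, as given later). Kcnq1ot1 is the antisense RNA of the imprinted Kcnq1 domain.

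In striatum, Kcnh5 (Kv10.2) was high in C3H HeJ, at 8.08, 8.21 and 8.15 against 5.26 to 7.48 in the other strains. It exceeded C57BL6/J by 1.87 ± 0.40 (SE; limma adjusted p = 0.006). Its 6-strain call (adjusted p = 0.0193) was lost on leaving out any of 3 arrays, those of C3H HeJ, with p up to 0.0845 in limma. Kcnma1 rose by 0.49 ± 0.09 in C3H HeJ and BalbC/J (adjusted p = 0.00132, limma), with 10.64 to 11.22 against 10.01 to 10.89; its next brightest probe set differed by -0.017. Kcnj3 and Kcnt2 fell by 1.17 ± 0.40 and 0.69 ± 0.24 (adjusted p = 0.0449 and 0.0486, limma), and each call was lost on leaving out any of 14 arrays. The striatal C57L/J arrays (tested, then the untested pair) gave 8.06, 9.91 and 10.77 for Kcnj3 and 8.11, 9.34 and 10.25 for Kcnt2, and lay 0.75 below and 0.66 and 1.62 above the tissue median on the cortical marker list. The whole list ran from 7.62 to 9.32 in C3H HeJ and BalbC/J and from 7.26 to 9.92 in C57 strains, and its part in these values was not tested.

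The striatal counts moved with single arrays. Without the tested BalbC/J array 20 genes were called among strains, the former 11 included, and without the tested C57L/J array 23, again with all 11. All genes then stood at 30.2% and 34.3%. The tested C57L/J array lay 0.75 below the tissue median on the cortical list, and the C57L/J arrays left without it 0.66 and 1.62 above. Leaving out C3H HeJ arrays gave 6 (tested), 6 and 5 (untested), the tested C57BL10/J array 6, and the first untested array of BalbC/J, C57BLKS/J or C57L/J or the second of C57BL6/J gave 7. The C57 contrast in striatum moved to 9 without the tested C3H HeJ or the first untested BalbC/J array and to 21 without the tested BalbC/J array, which keeps 13 of the 14 calls and loses Kcnk2.

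In brainstem, Kcnn2, the SK2 channel of the afterhyperpolarisation, rose by 0.26 ± 0.04 in C3H HeJ and BalbC/J (SE; limma adjusted p = 0.000969), with arrays from 10.12 to 10.32 against 9.79 to 10.07. Kcnk3 rose by 0.50 ± 0.16 (adjusted p = 0.04, limma). Its C3H HeJ arrays were 8.97, 9.05 and 10.32, the last being the one with cerebellar markers, and without it the difference was 0.28 ± 0.08 (SE; adjusted p = 0.015, limma). Of 11 cerebellar markers, 4 were called higher and 0 lower in brainstem of C3H HeJ and BalbC/J, with a median difference of 0.86; the list ran from 9.29 to 13.54 there (median 10.14) and from 8.59 to 10.25 in C57 strains (median 9.12), and 2 of the BalbC/J arrays lay 1.03 and 1.14 above the tissue median. Its part in the brainstem rises was not tested. On the C3H HeJ array with the highest cerebellar list Kcnj12 was 9.06 against a mean of 6.13 on the other C3H HeJ arrays, Kcnmb4 11.42 against 8.66 and Kcnh5 4.52 against 6.78. Without it 20 channel genes were called among brainstem strains, the former 10 included, and 18 in the contrast with C57 strains, of which 8 were among the former 9. All genes then stood at 37.7% and 26.8%. Leaving out the tested or the first untested C3H HeJ array gave 14 and 16 in the contrast. The 6-strain count was 6 without the tested or first untested BalbC/J array, the first untested C57BL10/J, either untested C57BLKS/J, the second untested C57L/J or any C57BL6/J array.

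Kcnk2 was called among strains in all 3 tissues with ranges of 0.35, 0.66 and 0.42, and in the contrast with C57 strains it fell by 0.33 ± 0.10 in striatum and 0.25 ± 0.06 in brainstem (SE; limma adjusted p = 0.0285 and 0.0109). Kcnip4 (KChIP4) fell by 0.21 ± 0.06 in striatum and rose by 0.20 ± 0.05 in brainstem (SE; adjusted p = 0.0142 and 0.0131, limma); hippocampus gave 0.06 (adjusted p = 0.182, limma). Without the C3H HeJ array with cerebellar markers the brainstem differences of Kcnk2 and Kcnip4 were -0.19 ± 0.05 and 0.13 ± 0.02 (SE). Adjusted p was then 0.0138 and 0.000292 in limma. Their 6-strain calls in brainstem were lost on leaving out any of 14 and 15 arrays. The auxiliary subunits other than KChIPs were not called among the 6 strains in any tissue (0 of 7, 0 of 7 and 0 of 9), and Kv1 to Kv3 subunits were called in hippocampus (5 of 9: Kcna2, Kcna4, Kcna6, Kcnc1 and Kcnc4) but in neither other tissue (0 of 10 and 0 of 10). All genes were called at 31.2%, 26.2% and 23% in the 3 tissues. The zeros depended on single arrays. Without the C3H HeJ brainstem array with cerebellar markers, Kcnc1, Kcnc4 and Kcnab1 were called there (all genes, 37.7%). In striatum Kcnc2, Kcnc4 and Kcnmb4 were called without the tested BalbC/J array (all genes, 30.2%). Leaving out the tested C57L/J striatum array instead gave calls for Kcna5, Kcnc1, Kcnc4 and Kcnab1 (all genes, 34.3%). The C57L/J striatum arrays left in that refit lay 0.66 and 1.62 above the tissue median on the cortical list. The part of cortical content in these calls was not tested. Whether the family counts differ between tissues was not tested.

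The third comparison asked whether strain differences depended on tissue. Limma's interaction test over 54 arrays called 8 of 66 channel genes, beside 17.4% of all genes: Kcnj6, Kcnip4, Kcnip3, Kcnt2, Kcnh5, Kcnip2, Kcnk3 and Kcna2. Kcnj6 had the smallest adjusted p (7.66e-08), its strain differences being those of hippocampus. Its arrays lay near the filter in striatum (3.43 to 3.58) and brainstem (3.55 to 3.99), so strain differences there could not be judged. As given above, its next probe sets did not show the hippocampal pattern. For Kcnip4 the adjusted p was 0.00254: its striatal arrays in BalbC/J (10.46, 10.34 and 10.30) were below those of every other strain (10.54 to 11.04), while its BalbC/J brainstem arrays (11.64, 11.62 and 11.59) were not the lowest. Kcnip3 followed at 0.0028. For Kcnt2 (0.0111), C3H HeJ was highest in hippocampus at 10.81, 10.76 and 10.79 against 9.98 to 10.68, and C57L/J had the highest mean in striatum. Its striatal C57L/J values were higher on the arrays with raised cortical markers than on the tested one, as given above. The part of cortical content in this interaction was not tested. Kcnh5 had 0.0163, and its hippocampal C3H HeJ arrays, 5.18, 4.73 and 4.72, lay within the 4.17 to 5.23 of the other strains, unlike those of striatum. Kcnj10, Kcnj11 and Kcnk1 had interaction p of 0.0832, 0.929 and 0.163 after adjustment in limma. The count rose to 17 without the tested BalbC/J striatum array, to 22 without the tested C57L/J striatum array and to 13 without the C3H HeJ brainstem array with cerebellar markers, while all genes rose from 17.4% to 22.5%, 26% and 21.9%. Kcnj10 was called in the first 2 of these refits and Kcnk1 in the last, so their lack of an interaction call depended on single arrays. Without the tested C57L/J striatum array, the C57L/J striatum arrays left were those with raised cortical markers.

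**Figure D4:**
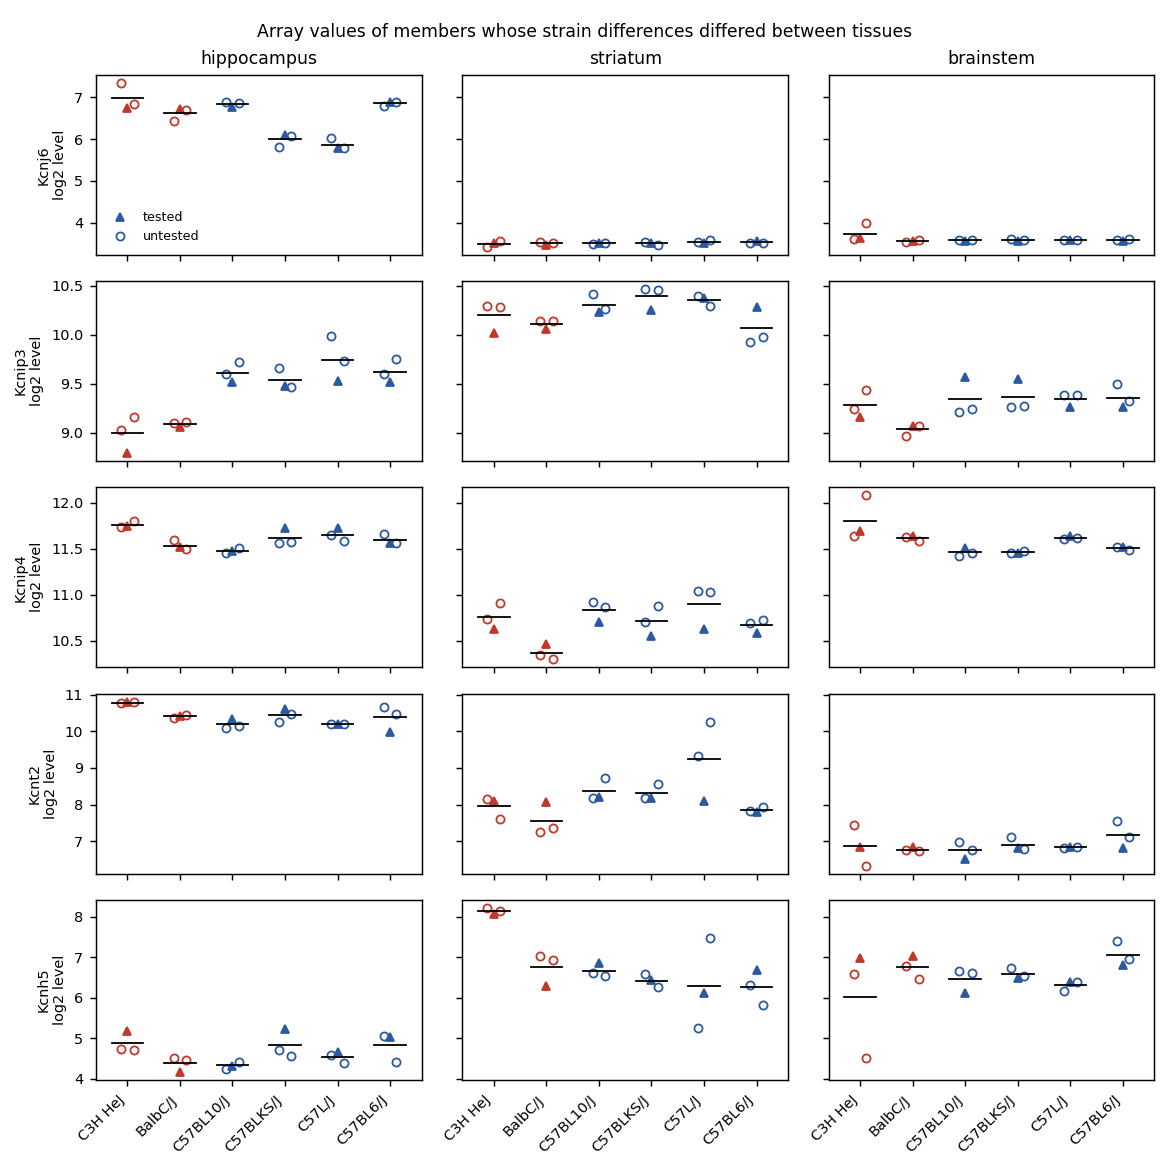
Log2 values of Kcnj6, Kcnip3, Kcnip4, Kcnt2 and Kcnh5, whose strain differences differed between tissues, on every array by tissue and strain (red, C3H HeJ and BalbC/J; blue, the 4 C57 strains; triangles, tested; open circles, untested; black bars, strain means over 3 arrays). Kcnj6 is low in hippocampus of C57BLKS/J and C57L/J, and Kcnh5 is high in striatum of C3H HeJ at 8.08 to 8.21.

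Probe sets of 1 gene did not always give the same strain pattern. Several were present for 46 of the 84 genes, 167 probe sets in all, and each gene was represented by the brightest. For Kcnq5 (Kv7.5, an M-current subunit), the brightest gave a hippocampal mean of 11.65 in C3H HeJ against 10.89 to 11.13 in the other strains. The third gave 4.30 in C3H HeJ against 9.82 to 10.31, and likewise 7.47 against 11.38 to 11.85 in striatum and 3.59 against 6.37 to 6.60 in brainstem. C3H HeJ was thus highest by one probe set and lowest by another of the same gene. For Kcnj9, the brightest was lower in hippocampus of C3H HeJ and BalbC/J (9.26 and 9.38 against 9.63 to 9.78), and the second higher (9.97 and 9.97 against 8.54 to 8.91). Kcnj9 is the immediate neighbour of Kcnj10 on chromosome 1 in the RefSeq annotation (GRCm38.p6), with no annotated gene between. The fourth probe set of Kcnj3 gave 5.29 in C3H HeJ hippocampus against 3.71 to 3.84, and its second ranged most in striatum, from 6.84 in C3H HeJ to 9.62 in C57L/J. Probe sequences were not used here, so whether strain variants lie under these probes was not tested.

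Kcnj13 (Kir7.1) and Kcne2 (MiRP1) are known from epithelia that secrete fluid, among them the choroid plexus. Both varied widely between arrays and did so together with 10 measured choroid plexus markers, a list that does not contain them. On the 7 hippocampus arrays whose list lay over 1 above the tissue median, Kcnj13 ran from 7.44 to 8.08 and Kcne2 from 6.77 to 7.61, and on the 11 others from 2.11 to 5.77 and from 2.58 to 4.42. On the 7 such striatum arrays the ranges were 6.26 to 9.35 and 5.26 to 8.20, against 2.50 to 5.32 and 2.05 to 3.67. In neither tissue did the arrays overlap. Transthyretin (Ttr), the main secreted protein of this tissue, covered 15.90 to 16.50 in brainstem, 11.18 to 16.25 in hippocampus and 11.91 to 16.24 in striatum. Arrays of 1 strain fell on both sides: hippocampal Kcnj13 was 7.60, 3.96 and 2.15 in C3H HeJ and 2.11, 8.08 and 7.90 in C57L/J.

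**Figure D5:**
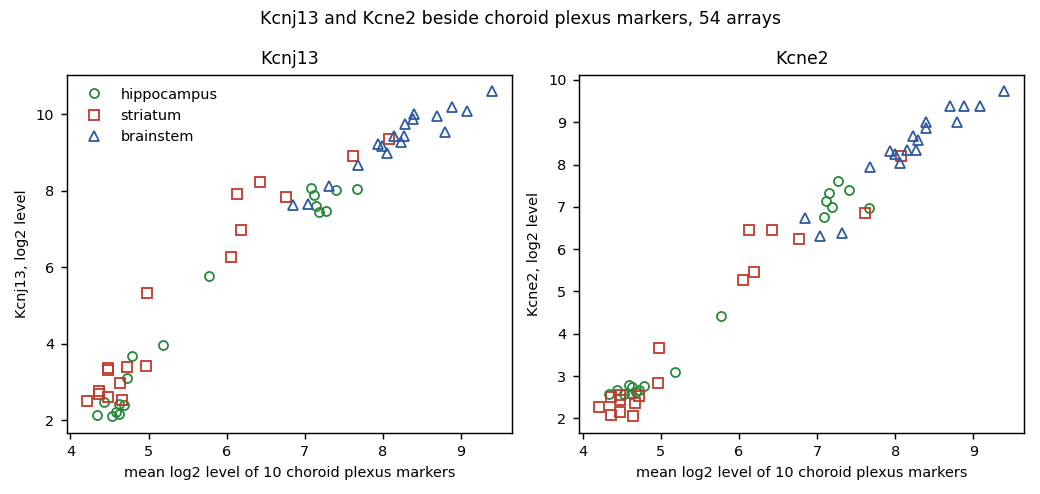
Log2 values of Kcnj13 and Kcne2 on 54 arrays against the mean log2 value of 10 choroid plexus markers on the same array (green circles, hippocampus; red squares, striatum; blue triangles, brainstem). High points of both genes lie where the marker list is high, and the brainstem arrays of Kcnj13 lie at 7.63 and above.

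In brainstem Kcnj13 fell by 1.17 ± 0.27 in C3H HeJ and BalbC/J (SE; limma adjusted p = 0.00747) and Kcne2 by 1.27 ± 0.40 (adjusted p = 0.0364, limma). The Kcnj13 arrays were 9.53, 8.98 and 8.12 in C3H HeJ and 7.65, 7.63 and 9.28 in BalbC/J, against 8.66, 9.82 and 10.62 (lowest, median and highest) in C57 strains, with overlap. The choroid list moved the same way: 5 of its 10 genes were called lower and 0 higher, and its mean ran from 6.85 to 8.79 against 7.68 to 9.39. The part of these markers in the difference was not tested. The Kcne2 call was lost on leaving out any of 10 arrays, with adjusted p up to 0.116 in limma, and its value then ran from -1.72 to -0.86; the 6-strain call of Kcnj13 was lost without any of 12. Over tissues, Kcnj13 averaged 9.31 ± 0.85 and Kcne2 8.37 ± 1.01 in brainstem (SD, n = 18), 4.83 ± 2.59 and 4.54 ± 2.21 in hippocampus, and 5.02 ± 2.55 and 4.02 ± 2.08 in striatum.

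Genes that work with these channels were read from lists fixed by name. Of 24 partner and clustering proteins 22 were measured, and 4 of 19, 7 of 19 and 5 of 20 were called among strains in hippocampus, striatum and brainstem (all genes, 31.2%, 26.2% and 23%). In the contrast with C57 strains 6 (2 higher, 4 lower), 6 (3 and 3) and 8 (4 and 4) were called, where all genes stood at 25.4%, 24% and 20.7%. The counts were not tested against these shares. Pex5l, the TRIP8b subunit of HCN channels, fell by 0.86 ± 0.09, 0.57 ± 0.15 and 1.10 ± 0.17 in the 3 tissues (SE; limma adjusted p = 2.71e-06, 0.0153 and 0.000453). Dpp6, an extracellular partner of Kv4 channels, rose by 0.13, 0.50 and 0.13 (adjusted p = 0.0368, 0.000102 and 0.0233, limma). Cntnap2 (Caspr2), which clusters Kv1 channels beside the node, fell by 0.23, 0.52 and 0.28 (adjusted p = 0.0175, 0.000343 and 0.0236, limma). Of 4 HCN channel genes 2 were measured, and Hcn2 rose by 0.44 ± 0.10 in striatum (adjusted p = 0.00419, limma), while Hcn3 was called in no tissue. Of 14 pump and chloride transport genes 10 were measured, and 1, 3 and 3 of 9 were called among strains, again beside 31.2%, 26.2% and 23% of all genes. Slc12a2, the chloride loader NKCC1, fell by 0.33, 0.45 and 0.28 in the contrast (adjusted p = 0.0238, 0.000465 and 0.000983, limma).

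The last comparison asked whether prepulse inhibition testing at postnatal day 50 left a difference. None was called: 0 potassium channel genes and 0 of all genes (background 0%) passed limma's test in hippocampus, striatum, brainstem or the 3 tissues together. At an unadjusted p under 0.05 there were 3, 1, 0 and 2 channel genes, and 488, 467, 281 and 472 of all genes. The lowest p was that of Kcnj4 in hippocampus, where tested arrays lay 0.34 ± 0.06 below untested ones (SE; adjusted p = 0.323, limma). The tested arrays of Kcnj4 were 8.14 in C57BL6/J, 7.99 in C57L/J, 7.64 in C57BLKS/J, 8.15 in C57BL10/J, 7.48 in BalbC/J and 7.94 in C3H HeJ, below both untested arrays of the strain in 5 of the 6 strains (C57BL6/J untested, 8.06 and 8.36). Kcnip3 differed by -0.18 and Kcnc1 by 0.11 in hippocampus (adjusted p = 1 and 1, limma). Kcnip4 and Kcnk1 differed by -0.17 and -0.08 in striatum, Kcns2 and Kcna3 by 0.13 and 0.19 in brainstem, and Kcne4, Kcnmb4os2 and Kcnip2 by 0.09, -0.03 and 0.07 over the tissues. Kcnj13, which rose and fell with the choroid plexus list, differed by 1.66 ± 0.89 in striatum and -0.47 ± 0.27 in brainstem. From the striatal median of that list, tested arrays lay 2.77 (C57BLKS/J), 1.59 (C57L/J), 1.35 (BalbC/J), 1.21 (C57BL6/J), -0.12 (C57BL10/J) and -0.20 (C3H HeJ). The first untested array lay at 3.23 in BalbC/J, 1.92 in C57BLKS/J and 1.29 in C57L/J, and all other untested ones at 0.14 or less. How far choroid plexus content entered the Kcnj13 differences was not tested. A single tested array per strain and tissue limits this comparison.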

How the data were processed

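RNA of hippocampus, striatum and brainstem was measured on 54 Affymetrix arrays. The authors deposited 1 normalized log2 value for each of 45101 probe sets and array; per the submitters' processing notes, R 2.6.1, affy 1.16.0, RMA, GCRMA 2.10.0 and limma 2.12.0 were used, and the sources used here do not say which of them made the values. Per array, the lowest value differed between tissues (-0.20 to -0.15 in hippocampus, -0.02 to 0.03 in striatum, -0.12 to -0.08 in brainstem), so levels set across tissues carry that limit. Hybridization batches and scan dates were not given in the sources used here.

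Control probe sets (64), those with several symbols (932) and unnamed ones (9160) were left out; 34945 had 1 symbol. The probe set with the highest mean over the 54 arrays stood for each of 18193 genes. All 84 channel symbols matched RefSeq. A gene was tested where it exceeded the array's 40th percentile (3.12 to 3.47) on at least 3 arrays of a tissue: 12317, 12320 and 12484 genes, and 13199 in the models across tissues. Limma 3.58.1 in R 4.3.3 (lmFit, eBayes with intensity trend, two-sided, Benjamini-Hochberg adjustment over all genes tested) was fitted per tissue with strain and testing as terms, and over 54 arrays with strain, tissue, their interaction and testing. Genes were called at an adjusted p under 0.05. The fits were tested on simulated data.

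Alternatives were quantile normalization, median centring, other filters, other probe sets, no trend, no testing term, a replicate block and leaving out each array. Each array holds a pool of 3 mice, and p-values measure the spread between pools. Genes named in the text were those called in all 3 tissues or widest in range, highest or lowest by tissue, of smallest p in each test, of discordant probe sets, and a list of well-known channels. Members and lists were chosen with earlier results of these data known. Some potassium channel genes were not analysed here.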

Additional observations from a re-analysis of the deposited data

Results flagged for a closer look

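Strain differences that were not alike in the 3 tissues drew attention for 8 channel genes, by limma's interaction test over 54 arrays; 17.4% of all genes passed the same test. Adjusted p was 7.66e-08 for Kcnj6, a G protein-gated inward rectifier that was low in hippocampus of C57BLKS/J and C57L/J. Kcnj6 lay near the filter in striatum and brainstem, so strain differences there could not be judged, and its next probe sets did not show the hippocampal pattern. Adjusted p was 0.00254 for Kcnip4, 0.0028 for Kcnip3 and 0.0233 for Kcnip2, all KChIP subunits of Kv4 channels. The Kcnip2 value passed the threshold except without the tested or the first untested BalbC/J hippocampus array (up to 0.0619). It was 0.0111 for the sodium-activated channel Kcnt2 and 0.0163 for the Kv10.2 gene Kcnh5, the latter reaching 0.0515 without the first untested C3H HeJ striatum array. For the leak channel Kcnk3 it was 0.0254. Kcna2, an axonal Kv1 subunit, had 0.0475 and lost the call without any of 36 arrays (up to 0.131). Striatal Kcnt2 of C57L/J was higher on the arrays with raised cortical markers than on the tested one, and the part of these markers was not tested.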

How the results depend on the processing

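The 6-strain count in striatum, 11, became 7 after median centring, 7 with no filter on low values and 6 with the next brightest probe set; the cause was not tested. The hippocampal difference of Kcnj9 between C3H HeJ with BalbC/J and the C57 strains turned to 0.22 with the mean of probe sets and 1.21 with the next brightest, and that of Kcnq5 to -0.89 with the mean of probe sets. In striatum Kcnip2 turned to -0.074 and Kcnma1 to -0.017 with the next brightest. Leaving out 1 array at a time gave 18 to 24, 5 to 23 and 6 to 20 genes among the 6 strains in hippocampus, striatum and brainstem, 11 to 20, 9 to 21 and 7 to 18 in the contrast with C57 strains, 6 to 22 by strain and tissue, 2 to 4 in C3H HeJ and 2 to 4 in BalbC/J called alike in 3 tissues, and 0 for testing. The 3 tissues of a strain share mice, but the labels do not say that same-numbered arrays hold the same pool, and the replicate numbers were not taken as pairs: same-numbered arrays correlated over 0.1 in 4 of 18 pairs for hippocampus with striatum, 10 of 18 for hippocampus with brainstem and 2 of 18 for striatum with brainstem (medians 0.01, 0.11 and -0.01). With the replicate number as a block the counts were 22, 11 and 9 among strains, 14, 11 and 10 in the contrast, and 8 by strain and tissue, and 6 of 176 named results missed the threshold. Of those 176, 168 kept direction and side of the threshold under quantile normalization and 157 under median centring. Fewer did so with other probe sets. With the mean of probe sets 150 kept both, 24 missed the threshold and 2 changed direction. With the next brightest probe set 131 kept both, 39 missed the threshold and 3 changed direction. The 38 channel genes with 1 probe set kept the same values in these 2 settings. The number of pools, 3 per strain and tissue, limits the precision.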
